A study of Mus musculus with 4 samples.

Results

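The 10 genes described here are Nfe2l2, which encodes the transcription factor Nrf2, its inhibitor Keap1, and 8 genes of the antioxidant response, namely Hmox1, Nqo1, Srxn1, Txnrd1, Txn1, Osgin1, G6pdx and Sod2. They were taken by symbol from the 32285 genes of the count matrices, and each symbol had 1 row. Single-nucleus RNA sequencing (snRNA-seq) had been performed on the cerebral cortex of 4 GCLC-KO mice, 2 at 3 months of age (libraries 3M-1, 3M-2) and 2 at 6 months (libraries 6M-1, 6M-2), each mouse giving its own library. All 4 mice carried floxed alleles of the catalytic subunit of glutamate-cysteine ligase, the first enzyme of glutathione synthesis, together with CaMKII-Cre, which is active in excitatory neurons. The cortical pieces were selected for their abundance of rod-shaped microglia, and DAPI-stained single nuclei were sorted before library construction. No wild-type library was analysed here, so each result is a difference between cell types, between ages or between states of a cell type within GCLC-KO cortex, and none is a response to the deletion.

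Under basal conditions Keap1 binds Nrf2 and presents it to a cullin 3 ubiquitin ligase for degradation. Oxidants and electrophiles modify cysteines of Keap1, Nrf2 then accumulates, pairs with a small Maf protein and binds antioxidant response elements near genes for NADPH supply, thiol reduction, quinone reduction, heme breakdown and glutathione synthesis. In the brain the pathway is best known from glia, especially astrocytes, which supply glutathione precursors to neurons. Because much of the control of Nrf2 acts on the protein, the level of Nfe2l2 RNA does not report its activity.

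The start sites of the genes were searched for the core of that element, since it is the sequence through which Nrf2 would bind. The RefSeq promoter windows of GRCm38, from 250 bases before to 50 bases after the start, were searched on both strands for TGACNNNGC and TGAGNNNGC, which exclude each other at the same bases and share letters with the AP-1 site. Of the 10 genes, 9 had a window, 11 windows in all, and 5 of the 11 windows, each of another gene, had at least 1 match, while 27.8% of all 32851 promoter windows held one of the patterns. Each match is shown with 10 bases on either side, 5′ to 3′ on the strand of the gene, with the match in capitals and its first base counted from the start site as position 0.

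Nfe2l2, position -240, chr2:75704885-75704913, minus strand: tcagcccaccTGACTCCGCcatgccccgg
Srxn1, position -158, chr2:152105356-152105384, plus strand: tctactgagaGCCGACTCAtcctctctgg
Srxn1, position -45, chr2:152105469-152105497, plus strand: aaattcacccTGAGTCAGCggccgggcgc
Srxn1, position 28, chr2:152105542-152105570, plus strand: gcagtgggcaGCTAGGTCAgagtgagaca
Txnrd1, position -92, chr10:82859104-82859132, plus strand: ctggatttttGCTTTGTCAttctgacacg
Osgin1, position -99, chr8:119437038-119437066, plus strand: aggggcccctGCTGACTCAcgcttatgaa
G6pdx, position -57, chrX:74428919-74428947, minus strand: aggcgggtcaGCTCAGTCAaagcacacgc

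Srxn1 held 3 matches and the other 4 genes held 1 each. A match gives only the letters of the window and is no evidence of binding, and known elements of several of these genes lie outside windows of this length.

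The 4 libraries held 30784 nuclei, of which 30515 remained after filtering, with between 59262228 and 65894316 UMIs per library. Cell types were assigned by a gate on marker genes, none of which is a member, because no deposited annotation was used. The gate placed 23908 nuclei in a class and left 6607 (21.7%) in none, and 95.4% of the classed nuclei fell in a cluster of the same name. 7 classes had at least 10 nuclei in every library. Excitatory neurons numbered between 2561 and 3963 nuclei per library, inhibitory neurons between 806 and 1061, oligodendrocytes between 858 and 1560, microglia between 366 and 703, oligodendrocyte precursor cells (OPC) between 168 and 254, astrocytes between 40 and 78 and striatal-type neurons between 10 and 140. The excitatory median was between 8363 and 12108 UMIs per nucleus, and the microglial median between 1484 and 2245. Raw UMIs were summed per library and class, levels are given as CPM, the UMIs of a gene per 1000000 UMIs of that class and library, and 3 members with few UMIs are given by their counts as well. Between 12 and 19 nuclear barcodes were shared by each pair of libraries, 93 in all.

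The deletion itself could not be read from these 3′ counts, in which transcripts that lack the floxed exons may still be counted. Read positions were not examined. By western blot the study found a marked loss of GCLC protein in GCLC-KO cortex. Gclc was at 41.9, 33.7, 32.6 and 36.0 CPM in excitatory neurons (3M-1, 3M-2, then 6M-1, 6M-2, an order kept throughout) and at 47.3, 40.2, 36.1 and 46.2 CPM in inhibitory neurons. The log2 difference was -0.07 ± 0.06 (SE; edgeR quasi-likelihood test, adjusted p = 0.354), so the excitatory class was not set apart by the RNA of the targeted gene.

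Nfe2l2 stood highest in microglia, where its level was 228, 164, 205 and 231 CPM (mean 207 ± 30.8 SD, n = 4). In excitatory neurons, the class in which the Cre is active, it was at 3.00, 5.08, 4.37 and 3.31 CPM (mean 3.94 ± 0.962). The 2 classes did not overlap, and the mean in microglia was 52.6 times that in excitatory neurons. Astrocytes came next at 35.6, 65.9, 36.4 and 60.9 CPM, overlapping with oligodendrocytes at 31.0, 27.0, 36.4 and 35.9 CPM. OPC (7.91 to 13.2 CPM) were below every oligodendrocyte value and overlapped with inhibitory neurons, which at 5.55, 7.49, 8.86 and 6.24 CPM were in turn above every excitatory value. Striatal-type neurons were listed between 0 and 7.58 CPM.

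Free RNA in the droplets can add transcripts of one class to another. The summed microglial marker list was found in excitatory neurons at 0.998% of its microglial level, while Nfe2l2 was found there at 1.90% of its microglial level, and the part of free RNA in the excitatory value was not tested. The share of nuclei with a UMI gave the same order at equal depth. After each nucleus was thinned to 1000 UMIs, Nfe2l2 was seen in 18.4%, 15.04%, 17.5% and 19.6% of microglia (mean 17.7%, 31.4% without thinning) and in 0.469%, 0.429%, 0.572% and 0.156% of excitatory neurons (mean 0.406%, 3.18% without thinning).

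**Figure D1:**
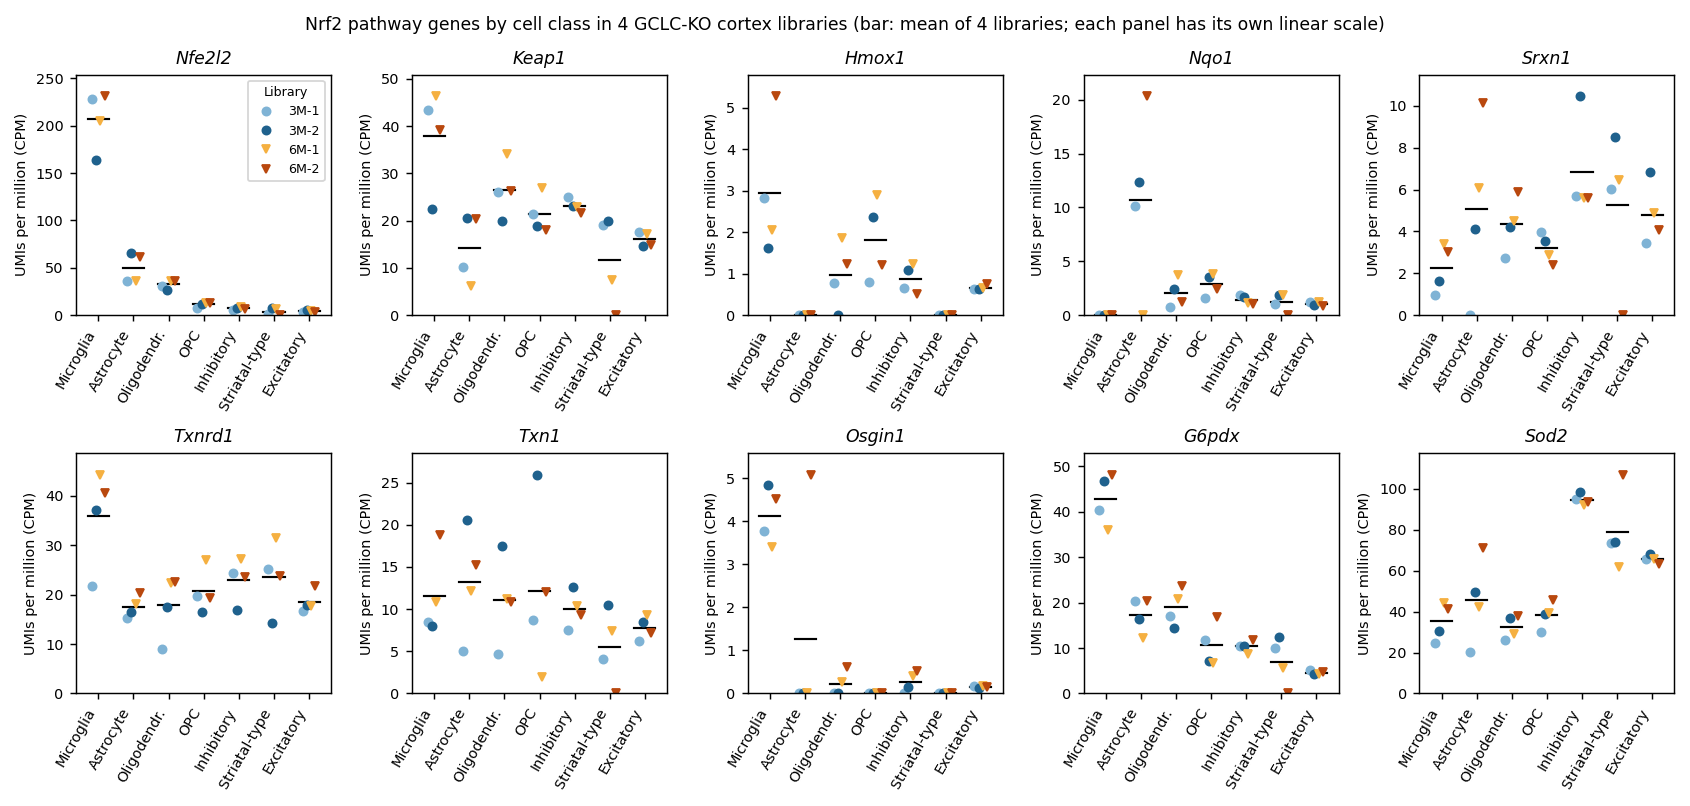
Level of each of the 10 genes (vertical axis, CPM, a linear scale of its own in each panel) in 7 cell classes (horizontal axis), with 1 point per library and a bar at the mean. Every microglial value of Nfe2l2 and G6pdx lies above all values of the other classes, the mean of Sod2 is highest in inhibitory neurons, and Nqo1 has no UMI in the microglia of any library.

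To find the class in which each gene stood out, the sum of each class was compared with the mean of the other 6 classes in 1 edgeR fit, with the mouse as a block. Of the 10 members, 6 passed the filter on low counts, and 20 of their 42 comparisons had an adjusted p under 0.05. In microglia 67.9% of all 14142 genes tested were called, in excitatory neurons 65.8%, in oligodendrocytes 62.2%, in inhibitory neurons 58.7%, in striatal-type neurons 39.4%, in OPC 34.8% and in astrocytes 30.8%, so a call alone does not set a member apart. The shares of all genes higher and lower were 33.1% and 34.7% in microglia, 31.5% and 30.7% in oligodendrocytes, and 34.9% and 31.0% in excitatory neurons. In microglia 4 members were higher and 1 was lower, in oligodendrocytes 3 were higher and 1 was lower, and in excitatory neurons 1 was higher and 2 were lower. Inhibitory neurons had 1 higher and 2 lower (32.1% and 26.7% of all genes), and striatal-type neurons 1 and 1 (22.9% and 16.5%). OPC had 0 higher and 2 lower (21% and 13.8%), and astrocytes 1 and 0 (15.4% and 15.5%). The median log2 difference of the 6 members was 0.58 in microglia, 0.34 in oligodendrocytes and -0.20 in excitatory neurons, beside -0.05, -0.00 and -0.01 for all genes tested.

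Of the 2 regulators, Nfe2l2 differed in all 7 classes. It was higher in microglia by 3.81 ± 0.12 on the log2 scale (SE; adjusted p = 1.89e-22), in astrocytes by 1.68 ± 0.33 (adjusted p = 0.000178) and in oligodendrocytes by 1.15 ± 0.15 (adjusted p = 1.04e-07). Its log2 difference was -2.28 ± 0.18 in excitatory neurons (adjusted p = 2.8e-12), -1.50 ± 0.18 in inhibitory neurons, -2.03 ± 0.36 in striatal-type neurons and -0.84 ± 0.27 in OPC (adjusted p = 0.0148, 0.0634 without 6M-1). Keap1 varied less. Its level was 43.3, 22.5, 46.3 and 39.1 CPM in microglia against 17.5, 14.6, 17.2 and 14.8 CPM in excitatory neurons, with no overlap. Keap1 was higher in microglia by 0.70 ± 0.17 (adjusted p = 0.00058) and in oligodendrocytes by 0.52 ± 0.15 (adjusted p = 0.00326, 0.0751 without 6M-1). As shares of UMIs, both the factor and its inhibitor were thus higher in those 2 glial classes. CPM are not amounts per nucleus, and excitatory nuclei were deeper. Keap1 had 180 UMIs in 2097 microglial nuclei, 313 in 4513 oligodendrocyte nuclei and 2257 in 12099 excitatory nuclei. Per nucleus it was therefore highest in the excitatory class among these. The order of Txnrd1 between microglia (165 UMIs) and excitatory neurons (2600 UMIs) was also reversed per nucleus.

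Among the targets, G6pdx, the X-linked first enzyme of the pentose phosphate pathway and a source of NADPH, was also highest in microglia in CPM. Per nucleus this order did not hold. G6pdx had 189 UMIs in 2097 microglial nuclei and 323 in 3569 inhibitory nuclei, so microglia were not above inhibitory neurons. With 222 UMIs in 4513 nuclei, oligodendrocytes were below excitatory neurons, with 643 in 12099. The level of G6pdx was 40.5, 46.7, 36.1 and 48.2 CPM in microglia and 5.15, 4.21, 4.19 and 4.73 CPM in excitatory neurons. In CPM, oligodendrocytes were between them (14.4 to 23.5). G6pdx was higher in microglia by 1.62 ± 0.15 (adjusted p = 4.28e-11) and in oligodendrocytes by 0.76 ± 0.14 (adjusted p = 2.66e-05), and the log2 difference of excitatory neurons was -1.51 ± 0.14 (adjusted p = 4.57e-11). Txnrd1 overlaps Eid3 and Nfe2l2 overlaps Gm24996 on the same strand, and the reads of such genes can be divided between them or left out. On the opposite strand Keap1 overlaps Gm16754, Txnrd1 overlaps Gm38560 and Gm47073, and G6pdx overlaps Ikbkg. The G6pdx call in inhibitory neurons (-0.36 ± 0.13, adjusted p = 0.0222) was lost without 3M-1, 3M-2 or 6M-2 (adjusted p = 0.0879, 0.0552 and 0.0555).

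Sod2, the superoxide dismutase of the mitochondrial matrix, had the opposite distribution. Its level was 95.0, 98.3, 92.1 and 93.4 CPM in inhibitory neurons and 65.6, 68.3, 65.7 and 63.1 CPM in excitatory neurons, against 24.5, 30.6, 44.2 and 41.4 CPM in microglia. The 3 classes did not overlap. Sod2 was higher in inhibitory neurons by 1.08 ± 0.08 (adjusted p = 5.93e-13), in excitatory neurons by 0.68 ± 0.08 (adjusted p = 5.51e-09) and in striatal-type neurons by 0.68 ± 0.13. Its log2 difference was -0.91 ± 0.14 in microglia (adjusted p = 6.54e-07), -0.69 ± 0.11 in oligodendrocytes and -0.56 ± 0.14 in OPC. The summed excitatory marker list was found in microglia at 13.8% of its excitatory level, and Sod2 at 53.6%.

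Txnrd1, the cytosolic reductase that keeps thioredoxin reduced, was at 21.7, 37.0, 44.2 and 40.6 CPM in microglia and at 16.7, 17.97, 17.8 and 21.8 CPM in excitatory neurons. The microglial value of 3M-1 fell within the excitatory range. Its difference in microglia was 0.46 ± 0.17 (adjusted p = 0.0191), and this call was lost without 3M-2 (0.0766), 6M-1 (0.0986) or 6M-2 (0.0873). Txn1, thioredoxin itself, passed the test in no class, and its means ranged from 5.46 ± 4.48 CPM (SD) in striatal-type neurons to 13.3 ± 6.48 CPM in astrocytes, with every pair of neighbours in that order overlapping. Srxn1, which repairs overoxidized peroxiredoxins, did not pass the filter. It was at 5.68, 10.5, 5.60 and 5.59 CPM in inhibitory neurons, between 3.46 and 6.84 CPM in excitatory neurons, and between 0.942 and 3.40 CPM in microglia from 11 UMIs. All 4 microglial values were below the lowest excitatory value.

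The remaining 3 targets were sparse. Osgin1, an oxidative stress-induced regulator of growth, had 18 UMIs in microglia, at 3.77, 4.83, 3.40 and 4.52 CPM, and 22 UMIs in the far deeper excitatory class, between 0.13 and 0.18 CPM. No UMI was seen in OPC, which allows up to 0.754 CPM (with 3 UMIs taken as the limit over the pooled class, for counting error only). That limit lay 5.33-fold below the pooled microglial level of 4.02 CPM (95% counting interval 2.38 to 6.35). The fold leaves out the counting error of the microglial level. Hmox1, the inducible heme oxygenase, had 14 UMIs in microglia, at 2.82, 1.61, 2.04 and 5.27 CPM, and 93 UMIs in excitatory neurons, between 0.627 and 0.742 CPM. In CPM, every microglial value of both genes was above every excitatory value. The microglial values of Hmox1 rest on 3, 1, 3 and 7 UMIs. Per nucleus the order of Hmox1 was reversed, with its 14 UMIs in 2097 microglial nuclei and 93 in 12099 excitatory nuclei.

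Nqo1, a quinone reductase widely used as a readout of Nrf2, was not seen in microglia. Of 4480954 microglial UMIs 0 were Nqo1, which allows up to 0.670 CPM. It was listed at 10.2, 12.4, 0 and 20.3 CPM in astrocytes from 9 UMIs, and at 0.803 to 1.199 CPM in excitatory neurons from 145 UMIs. Pooled over libraries, the microglial limit of 0.670 CPM lay 16.8-fold below the astrocyte level of 11.2 CPM (95% counting interval 5.14 to 21.3). It lay 4.13-fold below OPC, at 2.76 CPM (1.38 to 4.94), and 3.19-fold below oligodendrocytes, at 2.14 CPM (1.37 to 3.18). Excitatory neurons, at 1.03 CPM (0.870 to 1.21), were 1.54-fold above the limit. These folds leave out the counting error of the other class. The class with the highest Nfe2l2 was therefore the class in which Nqo1 was not detectable at this depth.

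These sparse genes were tested in a fit without the filter on low counts, in which 39.6% of 27237 genes were called in microglia, 42.3% in excitatory neurons, 35.1% in inhibitory neurons and 18.1% in astrocytes. Its p-values cannot be set beside those of the filtered fit. For Nfe2l2 in microglia, a log2 difference of 3.74 had an adjusted p of 1.86e-254 by edgeR, against 1.89e-22 for 3.81 with the filter. In the unfiltered fit Osgin1 was higher in microglia by 4.36 ± 0.83 (adjusted p = 7.57e-07) and Hmox1 by 2.98 ± 0.93 (adjusted p = 0.00403). The mean of the other classes includes classes with 0 UMIs, namely OPC and striatal-type neurons for Osgin1, and astrocytes and striatal-type neurons for Hmox1. Fitted values of such classes have no lower bound, so both sizes and both calls depend on them. Hmox1 was fitted above that mean even in excitatory neurons (1.26 ± 1.06), its lowest class with a UMI. Srxn1 had a log2 difference of -1.38 ± 0.43 in microglia (adjusted p = 0.00406) and was higher in inhibitory neurons by 0.76 (adjusted p = 0.0011) and in excitatory neurons by 0.46 (adjusted p = 0.0439). Nqo1 was higher in astrocytes by 3.54 ± 0.78 (adjusted p = 6.08e-05), and it was called lower in microglia, where it had 0 UMIs and the fitted value is no bound. That microglial value enters the mean against which astrocytes were set.

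**Figure D2:**
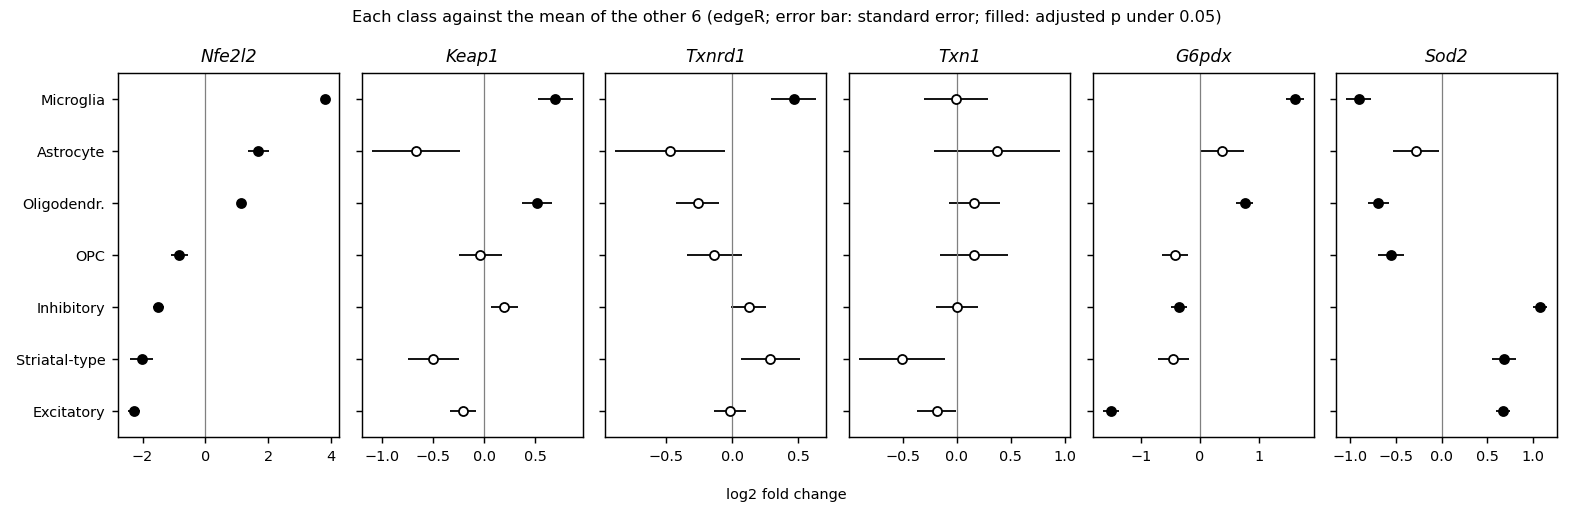
Log2 difference of each tested gene in each class from the mean of the other classes (horizontal axis), with 1 panel per gene and bars of 1 SE. Filled points have an adjusted p under 0.05 by edgeR. Nfe2l2 and G6pdx lie to the right in microglia and to the left in excitatory neurons, and Sod2 lies the other way.

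Excitatory neurons were next compared with inhibitory neurons of the same mice, because CaMKII-Cre is not active in most inhibitory neurons. In this fit 55.7% of 17895 genes were called. Of 9 members tested, 4 were lower in excitatory neurons (28.5% of all genes), 0 were higher (27.2%) and 5 did not pass. G6pdx had a log2 difference of -1.01 ± 0.11 (adjusted p = 2.78e-05), Nfe2l2 of -0.68 ± 0.13 (adjusted p = 0.0013), Keap1 of -0.36 ± 0.07 (adjusted p = 0.00144) and Sod2 of -0.36 ± 0.04 (adjusted p = 6.28e-05). Each of these 4 was lower in excitatory neurons in 4 of 4 mice, and the 2 classes did not overlap. The share of all genes without overlap was not counted here. Srxn1 had a difference of -0.32 ± 0.13 (adjusted p = 0.0599, 0.0324 without 6M-1), Hmox1 of -0.23 ± 0.33, Nqo1 of -0.28 ± 0.26, Txnrd1 of -0.15 ± 0.11 and Txn1 of -0.18 ± 0.10. No member was called higher in excitatory neurons, and in which nuclei the Cre had acted was not measured. The microglial marker list was also lower in excitatory neurons, at 0.998% of its microglial level against 1.41% in inhibitory neurons. The part of this in the Nfe2l2 difference was not tested. Without TMM scaling 7 members were called, all lower, and the median of all genes moved from -0.03 to -0.20.

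The 2 ages were then compared within each class. Of 41 member and class pairs tested by edgeR, 0 were called, 2 had an unadjusted p under 0.05, the smallest adjusted p was 0.482, and DESeq2 called 0 as well. Over all genes 0.147% were called in microglia (0.0953% higher and 0.052% lower), 0.0191% in OPC, 0.00775% in oligodendrocytes, 0.00524% in excitatory neurons and 0 in the other 3 classes. With 2 mice per age, an exact two-sided permutation test of 1 gene cannot give a p below 0.333.

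In microglia the 3 thioredoxin and dismutase genes were higher in both 6-month libraries than in both 3-month libraries. Sod2 had 24.5 and 30.6 CPM at 3 months and 44.2 and 41.4 CPM at 6 months, a log2 difference of 0.64 ± 0.30 (adjusted p = 0.482). Txnrd1 had 21.7 and 37.0 CPM at 3 months and 44.2 and 40.6 CPM at 6 months, a difference of 0.57 ± 0.32 (adjusted p = 0.591). Txn1 had 8.47 and 8.05 CPM at 3 months and 10.9 and 18.8 CPM at 6 months, a difference of 0.79 ± 0.50 (adjusted p = 0.644). This complete separation held for 3 of 6 members in microglia and for 21.4% of all genes there. Nfe2l2 differed by 0.11 ± 0.20, Keap1 by 0.28 ± 0.33 and G6pdx by -0.06 ± 0.28, with overlapping ages. The thinned share of microglia with a Nfe2l2 UMI was 1.84 percentage points higher at 6 months (exact permutation p = 0.667).

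In oligodendrocytes 5 of 7 members were higher in both 6-month libraries, beside 26.8% of all genes. Txnrd1 was at 8.92 and 17.4 CPM at 3 months and at 22.3 and 22.6 CPM at 6 months, a difference of 0.74 ± 0.31 (adjusted p = 0.614). Nfe2l2 differed by 0.21 ± 0.22, Keap1 by 0.28 ± 0.26, Srxn1 by 0.53 ± 0.50 and G6pdx by 0.37 ± 0.26. The median difference of the tested members was 0.28 in oligodendrocytes and 0.43 in microglia, beside 0.00 in both for all genes. In excitatory neurons the differences lay between -0.23 (Srxn1) and 0.15 (Txnrd1), and only Hmox1, at 0.11 ± 0.39, was higher in both 6-month libraries (1 of 9, beside 20.0% of all genes). In inhibitory neurons 4 of 8 members, Keap1, Nqo1, Srxn1 and Sod2, were lower in both 6-month libraries, beside 17.2% of all genes. In OPC 2 of 6, Nfe2l2 and Sod2, were higher in both (15.5% of all genes). In striatal-type neurons 2 of 4, Keap1 and G6pdx, were lower in both (17.8%), with 0 UMIs of either in 6M-2. Of the 2 pairs with an unadjusted p under 0.05 by edgeR, 1 was in oligodendrocytes and 1 in striatal-type neurons.

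Whether the age difference of another class departed from that of excitatory neurons was tested with an interaction term. Of 48 pairs 0 were called by edgeR (3 had an unadjusted p under 0.05), while 0.452% of all genes were called for microglia, 0.497% for oligodendrocytes, 0.0262% for OPC and 0.00654% for astrocytes. The smallest adjusted p, 0.278, was for Sod2 in microglia, whose age difference exceeded that of excitatory neurons by 0.76 ± 0.27. A difference in age response between neurons and glia was therefore not shown for any member.

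**Figure D3:**
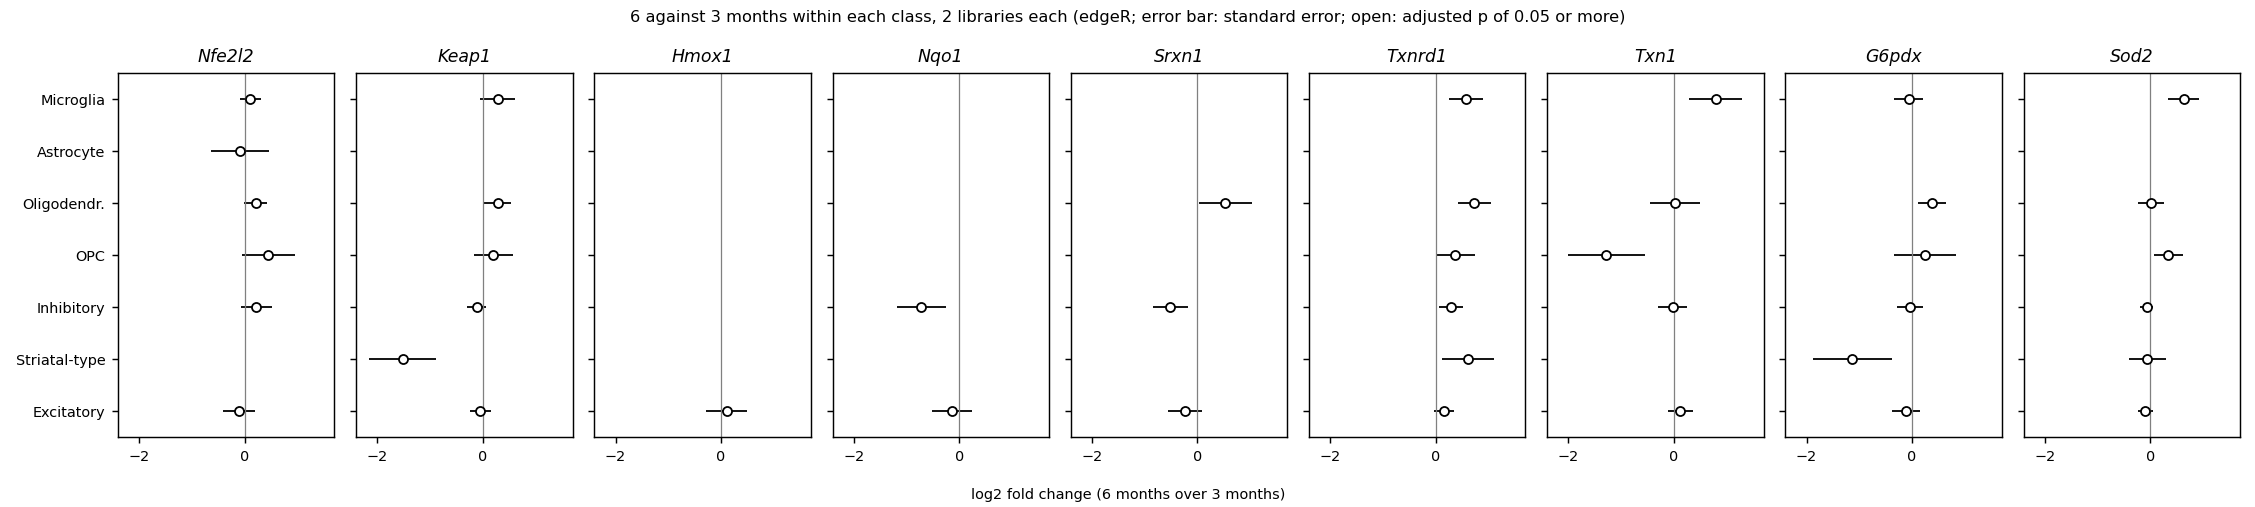
Log2 difference of 6 against 3 months (horizontal axis) for each tested gene in each class, with bars of 1 SE. Each gene has its own panel on a common axis, no point has an adjusted p under 0.05, and most points of microglia and oligodendrocytes lie above 0.

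Disease-associated microglia (DAM) are a state of microglia near damaged neurons and were the state followed in the study. Microglial nuclei with a UMI of at least 3 of 18 DAM markers were set against the other microglia of the same mouse. They made up 23.3%, 14.5%, 23.9% and 22.3% of the microglia, and had a higher median depth (between 2118 and 2656 UMIs) than the others (between 1356 and 2133 UMIs). Of 8170 genes 8.56% were called, and of 5 members tested 1 was.

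That gene was Txnrd1, at 30.2, 72.1, 66.1 and 69.3 CPM in DAM-gated nuclei (77 UMIs in all) and at 18.3, 28.2, 34.0 and 28.1 CPM in the other microglia (88 UMIs). It was higher in 4 of 4 mice, by 1.08 ± 0.25 on the log2 scale (adjusted p = 0.0108), although the DAM value of 3M-1 fell within the range of the other nuclei. The call was lost without 6M-1 (0.0606) or 6M-2 (0.0763), without the mouse as a block (0.0657) and with DESeq2 (0.111). Nfe2l2 was at 289, 216, 224 and 290 CPM in DAM-gated nuclei and at 204, 151, 196 and 205 CPM in the others, with no overlap. Its difference of 0.40 ± 0.13 was in the same direction in 4 of 4 mice and did not pass (adjusted p = 0.0581). It passed with doublet calls left out (0.00735), with a stricter cell type gate (0.0134) and with 1 more DAM marker required (0.0137). In the other 8 of 11 alternative settings it did not pass, with an adjusted p of up to 0.433. Sod2 differed by 0.28 ± 0.26, Keap1 by 0.06 ± 0.26 and G6pdx by -0.18 ± 0.29. Nqo1 had no UMI in either state. Srxn1 was lower in DAM-gated nuclei in 4 of 4 mice (mean 0.619 against 2.89 CPM), from 0, 0, 0 and 1 UMIs there, with overlapping ranges. The summed oligodendrocyte list was between 181 and 953 CPM in DAM-gated nuclei and between 184 and 348 CPM in the others, and the macrophage list between 112 and 156 CPM and between 196 and 396 CPM. The part of these differences and of depth in the Txnrd1 and Nfe2l2 values was not tested.

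Oligodendrocytes with a UMI of C4b or Serpina3n, genes of reactive glia, were compared with the other oligodendrocytes in the same way. They were 7.37% and 3.50% of oligodendrocytes at 3 months and 35.3% and 44.3% at 6 months. Of 10941 genes 0.503% were called, and of 6 members 0 were called by edgeR or DESeq2, with 0 at an unadjusted p under 0.05. Nfe2l2 was higher in the positive nuclei in 4 of 4 mice, by 0.22 ± 0.21. Its positive values rest on 8 UMIs in 3M-1 and 2 in 3M-2, and those of 6M-1 were close, at 37.5 against 35.8 CPM. Nqo1 went the other way in 4 of 4 mice (mean 0.890 CPM in positive nuclei, 2.32 CPM in the others), with overlapping ranges. Its positive values rest on 0, 0, 4 and 1 UMIs.

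**Figure D4:**
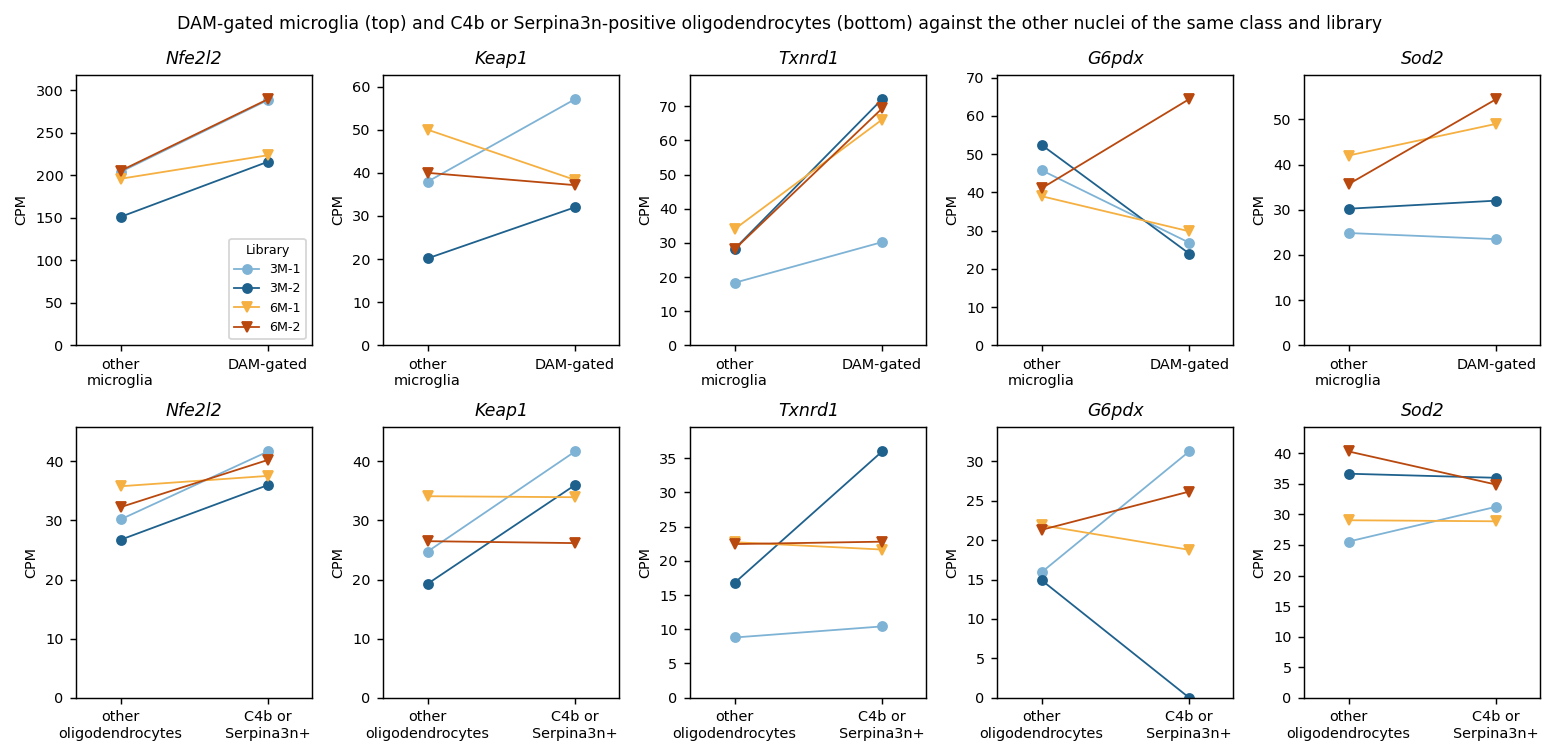
Level (vertical axis, CPM) of 5 members in DAM-gated and other microglia, and in C4b- or Serpina3n-positive and other oligodendrocytes, with 1 line per mouse joining the pair. The Txnrd1 and Nfe2l2 lines slope upward into the DAM-gated nuclei in all 4 mice.

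Excitatory neurons were divided by layer markers to see where in this class the members lay, each subclass being set against the mean of the others. Of 42 pairs 3 were called, beside 33.0% of 15012 genes for layer 4 neurons and 19.4% for Tshz2 neurons. Srxn1 was at 6.51, 10.8, 5.96 and 8.44 CPM in layer 4 neurons, higher by 1.21 ± 0.21 (adjusted p = 3.41e-05). Nfe2l2 was at 0.383, 1.96, 2.33 and 3.30 CPM in layer 4 neurons, from 27 UMIs, and its difference was -1.27 ± 0.38 (adjusted p = 0.00982, 0.112 without 3M-2). Thus 1 of the 7 members tested was higher in layer 4 neurons and 1 was lower, beside 17.7% and 15.3% of all genes. Srxn1 does not stand for the targets there. Of 23 further targets of Nrf2 tested in layer 4 neurons, from a list described below, 0 were higher and 7 were lower. G6pdx was higher in Tshz2 neurons by 0.86 ± 0.26 (adjusted p = 0.0187), a call lost without 3M-1 (0.0876), 3M-2 (0.0592) or 6M-2 (0.0965). With layer 6b neurons left out, an alternative chosen after seeing the data, 6 pairs were called and 2 of the 3 were among them.

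**Figure D5:**
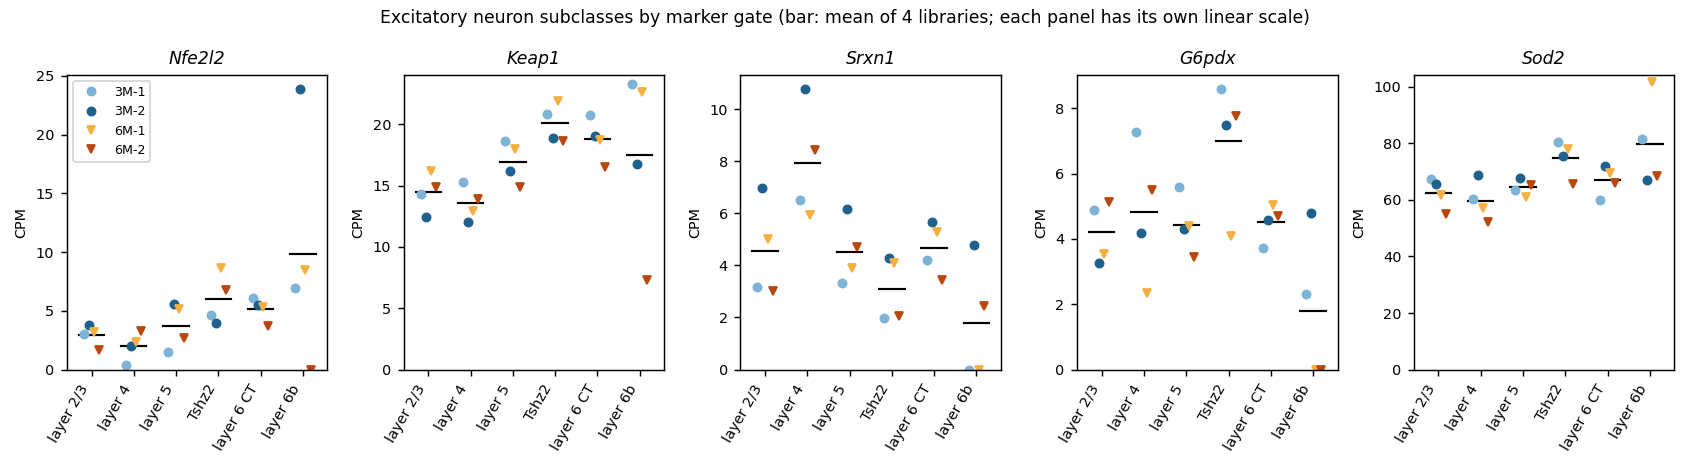
Level (vertical axis, CPM) of 5 members in the subclasses of excitatory neurons (horizontal axis), with 1 point per library and a bar at the mean. The mean of Srxn1 is highest in layer 4 neurons, with points between 5.96 and 10.8 CPM, and that of Nfe2l2 is lowest there.

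The other genes of the pathway were followed in 3 lists. They held 13 partners and regulators of Nrf2, 28 further targets, and 10 paralogs and other genes related to the members. Of these, 11, 24 and 7 were tested between classes. Of the further targets, 13 were higher and 1 was lower in astrocytes (15.4% and 15.5% of all genes), 13 were higher and 5 lower in oligodendrocytes (31.5% and 30.7%), and 10 were higher and 6 lower in microglia (33.1% and 34.7%). In neurons the counts ran the other way, with 4 higher and 15 lower in excitatory neurons (34.9% and 31.0%) and 1 higher and 15 lower in inhibitory neurons (32.1% and 26.7%) and 3 higher and 10 lower in striatal-type neurons (22.9% and 16.5%). OPC had 6 in each direction (21% and 13.8%). The median log2 difference of these targets was 0.86 in astrocytes, 0.54 in oligodendrocytes, 0.29 in microglia and -0.57 in excitatory and in inhibitory neurons.

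By the largest called differences, astrocytes were higher in Slc7a11, the cystine importer that feeds glutathione synthesis (7.25 ± 0.28), in the glutathione transferase Gstm1 (3.61 ± 0.32) and in the NADPH-forming Idh1 (2.51 ± 0.27). Oligodendrocytes were higher in the heme transporter Slc48a1 (3.11 ± 0.09), the pentose phosphate enzyme Taldo1 (2.76 ± 0.09) and the ferritin heavy chain Fth1 (2.53 ± 0.09). Microglia were higher in the biliverdin reductase Blvrb (2.47 ± 0.21), the pentose phosphate enzyme Pgd (2.45 ± 0.19) and the ferritin light chain Ftl1 (1.58 ± 0.12), and were lower in Pir (-3.63 ± 0.57) and in the malic enzyme Me1 (-2.76 ± 0.28). In excitatory neurons Me1 was higher (1.302 ± 0.11), and Gstm1 (-1.99 ± 0.20) and Idh1 (-1.64 ± 0.14) were lower.

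Among the 11 partners tested, 6 were higher and 2 were lower in microglia (33.1% and 34.7% of all genes). The repressor Bach1, which competes with Nrf2 for the same elements, was higher there by 2.35 ± 0.14, at a mean of 85.1 ± 20.9 CPM (SD, n = 4), and the small Maf Mafg by 0.96 ± 0.10. In excitatory neurons Bach1 was at 5.58 ± 0.534 CPM, and its log2 difference from inhibitory neurons was -2.15 ± 0.10 (adjusted p = 3.76e-08). Between excitatory and inhibitory neurons 1 partner was higher and 6 were lower of 13 tested, while 8 targets were higher and 5 lower of 25 (27.2% and 28.5% of all genes). Of the 7 genes tested from the third list, 4 were higher and 0 lower in microglia (33.1% and 34.7% of all genes). Among them were the thioredoxin inhibitor Txnip (5.51 ± 0.22), the mitochondrial reductase Txnrd2 (1.58 ± 0.16) and the constitutive heme oxygenase Hmox2 (0.78 ± 0.09). In oligodendrocytes 4 of the 7 were higher and 1 was lower (31.5% and 30.7% of all genes). Hmox2 had a larger difference there (1.56 ± 0.07). Txnip was also higher in oligodendrocytes (3.33 ± 0.29) and in astrocytes (3.52 ± 0.64). In striatal-type neurons its log2 difference was -7.89, and that low value enters the mean against which microglia were set. In the age, interaction, DAM and C4b or Serpina3n comparisons, 0 genes of the 3 lists were called by edgeR.

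The genes whose log2 CPM followed a member most closely over the 28 sums of 7 classes and 4 libraries were Lpar6 (Pearson r = 0.97) and Tns1 (0.96) for Nfe2l2, Clec5a and Pear1 (both 0.95) for Osgin1, Klf3 (0.94) and Il6st (0.93) for G6pdx, Apoo (0.94) and Atp1b1 (0.92) for Sod2, and Sri (0.92) and Rnf187 (0.91) for Keap1. The best values were lower for Srxn1 (Dnaja4, 0.87), Hmox1 (Tmem141, 0.86), Txn1 (Csnk2b, 0.85), Nqo1 (Dhcr7, 0.82) and Txnrd1 (Wdr43, 0.79). These values describe the 28 sums, which share mice and library depth.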

How the data were processed

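Raw UMI counts per gene and nucleus were deposited for each library. Per the file headers they were made with Cell Ranger 7.0.0, and the submitters' processing notes name Cell Ranger, Seurat and mm10. Nuclei with more than 7000 genes or more than 1% mitochondrial UMIs were left out, as in the study. Cell classes came from a marker gate checked against Leiden clusters (leidenalg 0.10.2). Scrublet doublet calls (scanpy 1.11.5, 3.81% to 8.92% per library) were kept in the main sums. Sums per library and class were tested with edgeR 4.0.16 (quasi-likelihood, TMM, filterByExpr, R 4.3.3), Benjamini-Hochberg over all genes tested; the scripts were tested on simulated data. DESeq2 1.42.0 was an alternative. SEs are the absolute log2 difference over the square root of F. Class, state and subclass fits carried the mouse as a block, and age fits did not. Gene positions and overlaps came from GENCODE M21 (GRCm38), in which 32158 of 32285 identifiers matched.

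The labels give a batch number equal to the replicate number at both ages, and age fits with this number as a block were the paired alternative. What the batch was is not given in the sources used here. Deviations of same-numbered samples from their age means correlated between -0.26 and 0.04 across classes. Counting intervals cover counting error only. The named genes are the 10 members, and per list and comparison up to 3 other pathway genes in each direction with the largest called difference, and the genes whose log2 CPM (prior 1 CPM) correlated best with each member. Members, marker lists and pathway lists were chosen with earlier results of these data known.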

Additional observations from a re-analysis of the deposited data

How the results depend on the processing

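Of the 7 group comparisons, the count of members called moved by over 1.5 times in 3. Between excitatory and inhibitory neurons it went from 4 to 7 without TMM. In DAM-gated microglia it went from 1 to 0 with DESeq2 or with no replicate block, to 2 without doublet calls, with a stricter gate or with 1 more DAM marker, and lay between 0 and 1 with 1 mouse left out. In subclasses it went from 3 to 7 without TMM, to 5 without a filter on low counts and to 6 with layer 6b left out, and lay between 1 and 5 with 1 mouse left out. Among the called class and subclass differences and the members tested between excitatory and inhibitory neurons or in DAM-gated microglia, direction turned for uncalled genes only, namely Keap1 in DAM-gated microglia (-0.043 with 1 more marker, between -0.13 and 0.29 with 1 mouse left out), G6pdx there (between -0.67 and 0.0043) and Hmox1 in excitatory against inhibitory neurons (between -0.46 and 0.0066). The causes were not tested. Without TMM the median of all genes in the class fit moved from -0.05 to 0.30 in microglia and from -0.01 to -0.26 in excitatory neurons, and the higher share of calls from 48.8% to 64.6% and from 52.9% to 34.4%.

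With the replicate block in the age fits, 0 members were called, and calls over all genes and classes went from 21 to 251. A crossed block, chosen after seeing the data, gave 133, DESeq2 gave 102, and leaving out 3M-1, 3M-2, 6M-1 or 6M-2 gave 657, 6139, 243 and 171, the lone mouse of an age being assumed to vary like the others. Members had 0 calls in each of these. Without the block the class fit made 19 of its 20 calls, losing G6pdx in inhibitory neurons. Striatal-type neurons gave no value without doublet calls, with the stricter gate or with clusters, because 6M-2 then had under 10 nuclei. The Sod2 call in OPC was lost with clusters (adjusted p = 0.194). Hmox1, Nqo1 and Osgin1 passed no filter in the class fit, and their glial values rest on 0 to 24 UMIs per class.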

Other observations

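Among classes too small to be fitted, 37 macrophage-gated nuclei held 17 Nfe2l2 UMIs of 135598, a pooled level of 125 CPM, and 1 Hmox1 UMI. They held no Nqo1 or Osgin1 UMI, which allows up to 22.1 CPM. That limit is above the pooled levels of Nqo1 in astrocytes (11.2 CPM) and Osgin1 in microglia (4.02 CPM). Neither gene could therefore be read in macrophage-gated nuclei. The 54 mural, 20 endothelial, 18 fibroblast and 10 T cell nuclei held no Hmox1 or Nqo1 UMI, which allows levels of up to 28.0, 73.7, 68.7 and 77.1 CPM. Hmox1 and Nqo1 could therefore not be read in these 4 classes.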
